A study of Mus musculus with 36 samples.

Results

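Transcripts of 30 coagulation and fibrinolysis genes were followed in mouse liver during repeated dosing with carbon tetrachloride (CCl4), a solvent that hepatocytes convert into a toxic radical. The members were taken as the rows of the count table with these gene symbols, 30 of 32544 symbols. They comprised 16 procoagulant genes (F2, F3, F5, F7, F8, F9, F10, F11, F12, F13b, Fga, Fgb, Fgg, Klkb1, Kng1 and Kng2) and 7 anticoagulant genes (Proc, Pros1, Proz, Serpinc1, Serpind1, Serpina10 and Tfpi). The other members were 4 fibrinolytic genes (Plg, Plat, Plau and Plaur) and 3 inhibitors or modulators of fibrinolysis (Serpinf2, Cpb2 and Hrg). All 30 members were chosen by symbol, with earlier results of these data known. Each of them passed the filter on low counts, as did 15338 genes in all.

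Whole livers of male C57BL/6N mice, 8 to 10 weeks old at the start, were sampled in 6 groups of 6. Mice in 3 groups had CCl4 dissolved in olive oil injected into the peritoneum, at 1 g/kg and with 2 injections per week, for 2, 6 or 12 months. Mice in 2 groups had the oil alone on that schedule for 2 or 12 months, and collection followed on day 6 from the final injection. The month 0 mice were titled control, although their treatment label also reads olive oil. No oil group of month 6 was labelled, so month 6 CCl4 was compared with the average of both oil groups, and mouse age rose with month. Each library is taken as 1 mouse, although the labels do not say that replicates came from separate animals, so p-values measure only the spread between these libraries.

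Blood clotting is a cascade in which liver-made serine protease zymogens activate one another until thrombin cleaves fibrinogen into fibrin. Antithrombin, heparin cofactor II, the protein C system and tissue factor pathway inhibitor restrain the cascade. Plasmin, released from plasminogen by tissue-type or urokinase-type activators, dissolves the clot. Hepatocytes secrete most of these proteins, fibrinogen is also an acute phase protein, and plasmin takes part in the turnover of liver matrix after injury.

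The 3 fibrinogen chain genes lie side by side on chromosome 3 (mm10, GENCODE vM21): Fgg at chr3:83007724-83015049, Fga at chr3:83026076-83033627 and Fgb, on the minus strand, at chr3:83040141-83049863. They were the highest members per kilobase of exon in every group . Their upstream sequence is shown because all 3 fell in the same comparisons described later. The bases before the RefSeq transcription start (GRCm38.p6) are given 5′ to 3′ on the gene's strand, up to 250, and stop before the first annotated GENCODE base, which shortens the Fga sequence. Capitals mark CTGGGA, the core of the interleukin-6 response element known from fibrinogen genes.
Fga, chr3:83025903-83026075, plus strand: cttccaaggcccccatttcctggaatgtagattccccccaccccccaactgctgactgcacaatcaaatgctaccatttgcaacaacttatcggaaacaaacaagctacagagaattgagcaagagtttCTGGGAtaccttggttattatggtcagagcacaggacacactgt
Fgb, chr3:83049864-83050113, minus strand: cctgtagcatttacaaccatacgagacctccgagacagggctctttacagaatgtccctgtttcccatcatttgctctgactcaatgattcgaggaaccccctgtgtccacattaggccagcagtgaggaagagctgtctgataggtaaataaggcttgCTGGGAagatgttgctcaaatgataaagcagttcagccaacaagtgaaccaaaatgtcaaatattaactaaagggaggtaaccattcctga
Fgg, chr3:83007474-83007723, plus strand: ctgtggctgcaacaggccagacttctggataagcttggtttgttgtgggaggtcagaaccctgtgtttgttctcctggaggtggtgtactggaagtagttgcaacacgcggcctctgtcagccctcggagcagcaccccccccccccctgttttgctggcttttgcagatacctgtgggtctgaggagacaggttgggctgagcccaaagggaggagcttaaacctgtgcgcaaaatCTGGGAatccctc

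The core began 121 bases before the start of Fga, 91 before that of Fgb and 13 before that of Fgg. Searched on both strands over 250 bases, CTGGGA was present in 27% of all 32851 promoters and in 9 of the 24 members with a promoter in the table (F9, F10, Fga, Fgb, Fgg, Pros1, Serpind1, Klkb1 and Tfpi). TTGCNNAA, a C/EBP-type match, was present in 9.56% of promoters and in 8 members, Fga and Fgb among them. GTTAAT, a half-site of the hepatocyte factor HNF1, was present in 6.43% and in 4 members (F13b, Fga, Fgb and Proz). The CTGGGA matches do not overlap the other motifs' letters in the sequences shown. These matches describe letters in the window and no bound factor.

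Libraries held between 19403247 and 28917545 counts. The level of a gene is its CPM, a count put on a shared library size by TMM scaling, which centres each comparison on the bulk of genes, so a member called higher or lower moved relative to the median gene. With library totals alone the median of all 15338 genes shifted by 0.20 (log2) at month 2, 0.31 at month 6 and 0.56 at month 12 in CCl4 against oil, and by 0.23 in month 2 oil against month 0. A gene was called at an adjusted p below 0.05 in edgeR's quasi-likelihood test with Benjamini-Hochberg adjustment over all tested genes. Hepatocyte markers were plentiful in every group (10 markers, summed level 72300 to 134000 CPM). Transcripts of pancreas acini varied between libraries of every group, from 9.63 to 34200 CPM summed over 8 markers.

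Per kilobase of exon, members differed in level by several orders of magnitude. In month 12 oil the medians were highest for Fgg (2720 CPM per kilobase), Fga (2090), Fgb (1840) and Kng1, the high molecular weight kininogen gene (695). Plasminogen (Plg) followed at 501, then the plasmin inhibitor Serpinf2 at 320. Plat (0.423), Plaur (0.439), Plau (1.12), tissue factor F3 (1.26) and Tfpi (2.03) were lowest. These low members are genes known mainly from endothelium, macrophages or other non-parenchymal cells. The next member up was F8, a gene of liver endothelium, at 8.04. In whole liver, fewer cells of a type and less RNA per cell cannot be told apart.

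The members together took a median of 6.66% of all counts at month 0 (5.16 to 9.03%). In the 5 later groups their median share lay between 2.36% and 2.76%. The 16 procoagulant genes held 5.78% at month 0, 2.16% in month 12 oil and 1.71% in month 12 CCl4, and the last ranges overlapped (1.67 to 2.59% and 1.41 to 2.76%).

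At month 2 of CCl4, 1 of 30 members rose and none fell, against 7% of all tested genes higher and 3.38% lower. The median change of the members was -0.01 (log2), beside -0.00 over all genes tested. At an unadjusted p below 0.05, 3 members were higher (Plaur, Hrg and Tfpi) and 1 was lower (Serpinc1). No share of all tested genes was counted at this unadjusted threshold. DESeq2 and limma-voom each called 1 higher and 0 lower. Of all tested genes they called 1932 and 1412, both directions together.

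The member that rose was Tfpi, the inhibitor of the tissue factor and factor VIIa complex. Its level in month 2 oil ran from 8.76 to 9.49 CPM, with a median of 8.94. In month 2 CCl4 it ran from 12.5 to 16.8 CPM, with a median of 13.7. All 6 CCl4 mice lay above all 6 oil mice, with a log2 difference of 0.64 (SE 0.10, adjusted p = 4.33e-05, edgeR). At month 6 CCl4 the level stayed between 11.6 and 14.2 CPM, 0.42 above the mean of the oil groups (SE 0.08, adjusted p = 0.000636, edgeR). That month 6 call was lost with month 12 oil alone as reference. At month 12 the CCl4 mice (8.47 to 14.1 CPM, median 12.9) overlapped the oil mice (9.89 to 12.5, median 11.1). The month 12 difference was 0.09 (SE 0.10, adjusted p = 0.439, edgeR). Library totals alone gave 0.84 at month 2 and 0.64 at month 12, both called. The CCl4 effect on Tfpi was smaller at month 12 than at month 2 by a test of the interaction (-0.54, SE 0.14, adjusted p = 0.00423, edgeR), a call lost with library totals alone (-0.20, adjusted p = 0.311). Of 10 markers of sinusoidal and vascular endothelium, 3 rose at month 2, 2 at month 6 and 5 at month 12, where 3 fell. Their summed level was 394 to 481 CPM in month 2 oil and 503 to 593 CPM in month 2 CCl4, and their part in the Tfpi result was not tested.

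At month 6 of CCl4, 3 members rose and 6 fell, against 7.71% and 3.68% of tested genes. Those that rose were Plat, Plaur and Tfpi. Those that fell were F7, F10, Pros1, Proz, Plg and Cpb2, each by 0.24 to 0.39 on the log2 scale. The members' median was -0.25. Scaled by library totals alone, no member fell at month 6, and the values of F10, Pros1, Proz and Plg turned slightly positive. Every one of the 30 members overlapped the pooled oil mice, and overlap was not counted over all tested genes. F7, the zymogen that tissue factor activates, ran from 49.1 to 64.8 CPM at month 6, beside 60.1 to 86.7 CPM in the 2 oil groups (-0.38, SE 0.08, adjusted p = 0.00122, edgeR). Without replicate 2 of month 6 CCl4, Plat (0.75, adjusted p = 0.232, edgeR) and Plaur (0.63, adjusted p = 0.203, edgeR) lost their calls, and so did Proz and Plg. The Plat call was also lost without replicate 1, 3, 4 or 5 of month 12 oil or replicate 1 or 5 of month 2 oil (1.03 to 1.08), and the Proz call without replicate 1 of month 6 CCl4 (-0.25). Cpb2 lost its call without replicate 5 or 6 of month 6 CCl4 (-0.37 each). Without replicate 2 of month 12 oil 11 members fell, in place of 6. With month 12 oil alone as reference 0 members rose. With month 2 oil alone 2 fell. Of all tested genes 1115 were called against month 12 oil alone and 1306 against month 2 oil alone, both directions together.

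At month 12 of CCl4, 18 of 30 members fell and 4 rose, against 23.2% and 25.9% of tested genes. The median of the members was -0.35, beside 0.01 over all genes tested. By role, 12 of 16 procoagulant members fell. Among the 7 anticoagulant genes 4 fell and Pros1 rose. Of the 4 fibrinolytic genes 3 rose and plasminogen fell, and of the 3 inhibitors and modulators Hrg fell. The calls depended on the scaling. Scaled by library totals alone, 14 members were called higher and only Klkb1 (-0.74) and Fgg (-0.52) stayed called lower. That scaling called 10923 of all 15338 tested genes, both directions together. Of the 18 that fell, 8 then changed sign (F2, F10, F11, F12, F13b, Serpind1, Serpina10 and Hrg), and the other 8 (F7, F8, F9, Fga, Fgb, Proc, Proz and Plg) stayed below 0 without a call. The fall of most members is therefore a fall relative to the median gene. Leaving out any 1 library gave 15 to 19 falling and 3 or 4 rising members. Replicates 1 and 6 of month 2 CCl4, replicate 2 of month 2 oil and replicate 2 of month 12 oil were picked from earlier results as holding transcripts of other tissues or blood cells, although pancreas transcripts were higher in some other libraries. Without these 4 libraries 19 members fell and 3 rose, and 7791 of all tested genes were called, both directions together.

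**Figure D1:**
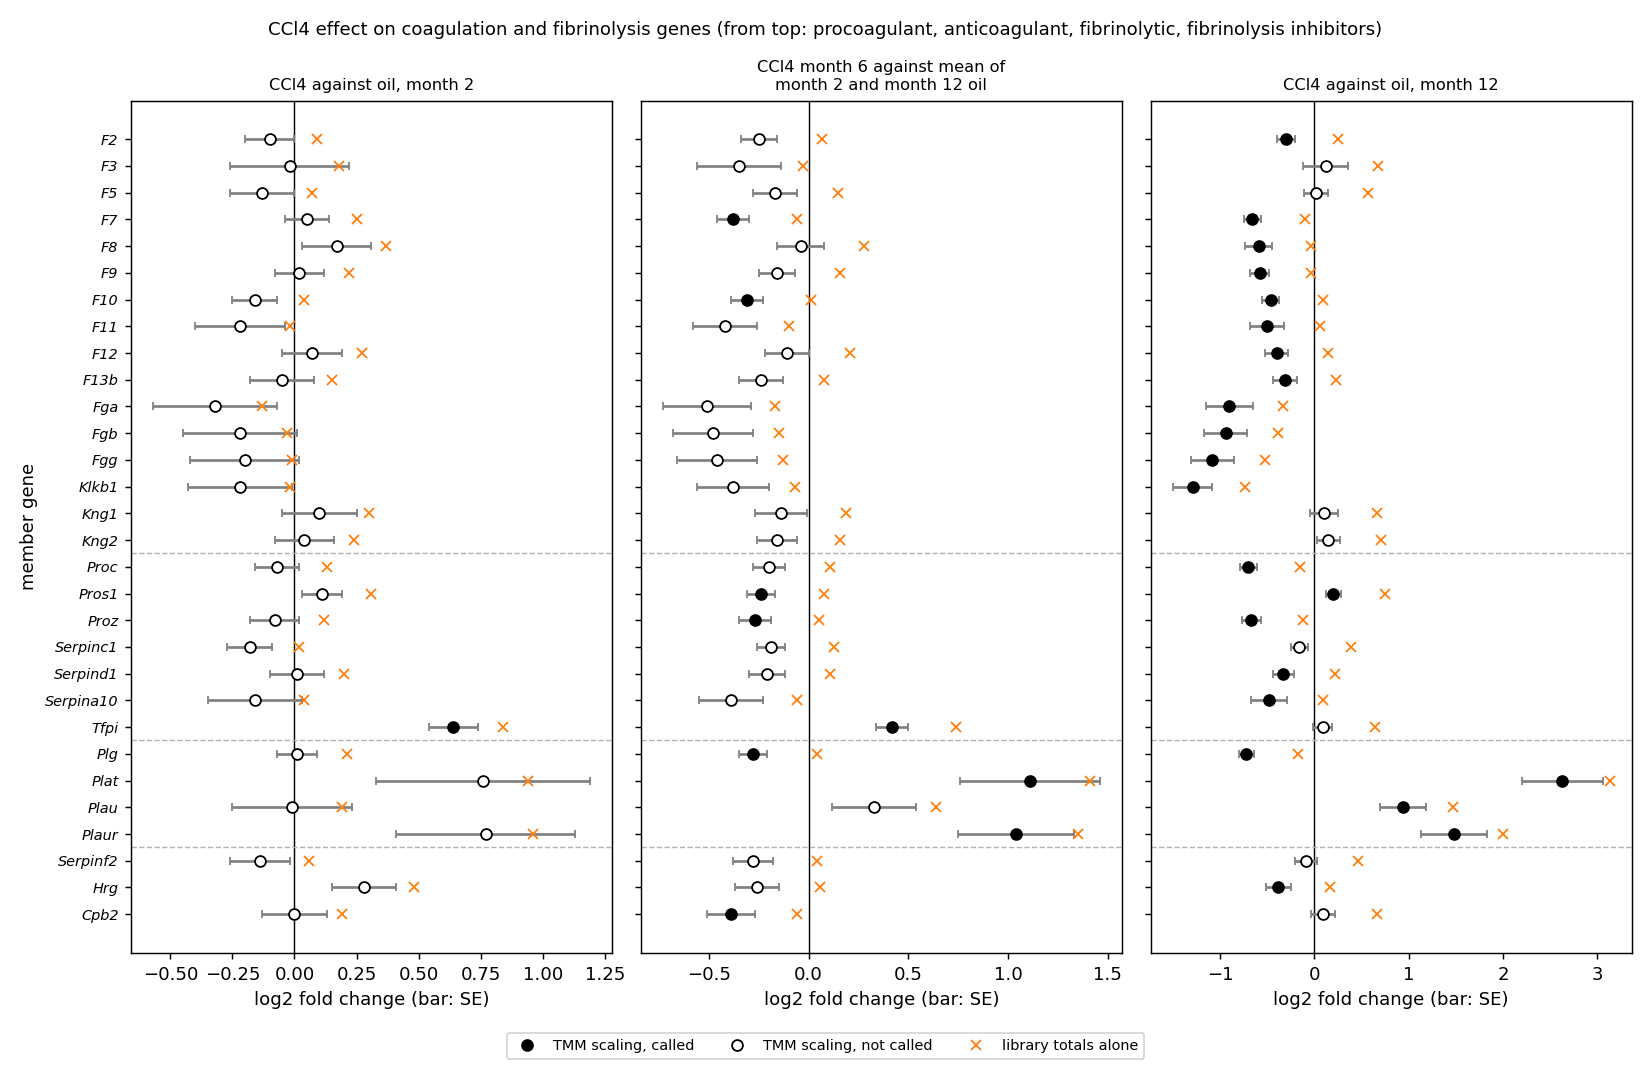
Log2 fold change of each of the 30 members (rows, ordered by role between dashed lines) for CCl4 against oil at months 2, 6 and 12, with standard error. Filled circles passed the test, open circles did not, and crosses give the value with library totals alone. At month 12 the circles of 18 members were called below 0 and those of Plat, Plau, Plaur and Pros1 above it, while only Klkb1 and Fgg stayed called below 0 as crosses.

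The 3 fibrinogen chains fell together at month 12. Fgg, the gamma chain, ran from 3470 to 7410 CPM in oil (median 5690) and from 2090 to 3950 CPM in CCl4 (median 2330). Fgg fell by 52.8% (log2 -1.08, SE 0.23, adjusted p = 0.000177, edgeR). Only the lowest oil mouse lay inside the CCl4 range. Fgb, the beta chain, ran from 4330 to 9020 CPM in oil (median 7000) and from 2550 to 5500 CPM in CCl4 (median 3220), a change of -0.94 (SE 0.23, adjusted p = 0.000854, edgeR). Fga, the alpha chain, ran from 3960 to 8310 CPM in oil (median 6300) and from 2500 to 5310 CPM in CCl4 (median 2940), a change of -0.90 (SE 0.25, adjusted p = 0.00323, edgeR). At month 2 the chains differed from oil by -0.20 to -0.32 and were not called. The change between the CCl4 effects at months 2 and 12 was called for Fgg (-0.88, adjusted p = 0.0437, edgeR) and not for Fgb (-0.73, adjusted p = 0.104) or Fga (-0.58, adjusted p = 0.257). The Fgg call was lost without any of 16 single libraries.

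The ratio of one chain to another varied less between mice than the levels did. The log2 ratio of Fgg to Fga was -0.17 ± 0.09 (SD, n = 6) in month 12 oil and -0.35 ± 0.08 in month 12 CCl4. This difference of -0.18 had an exact two-sided permutation p of 0.0108 and an adjusted p of 0.0779. None of 20 such tests of ratios between neighbouring members, chosen after the data were seen, fell below 0.05 after adjustment.

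**Figure D2:**
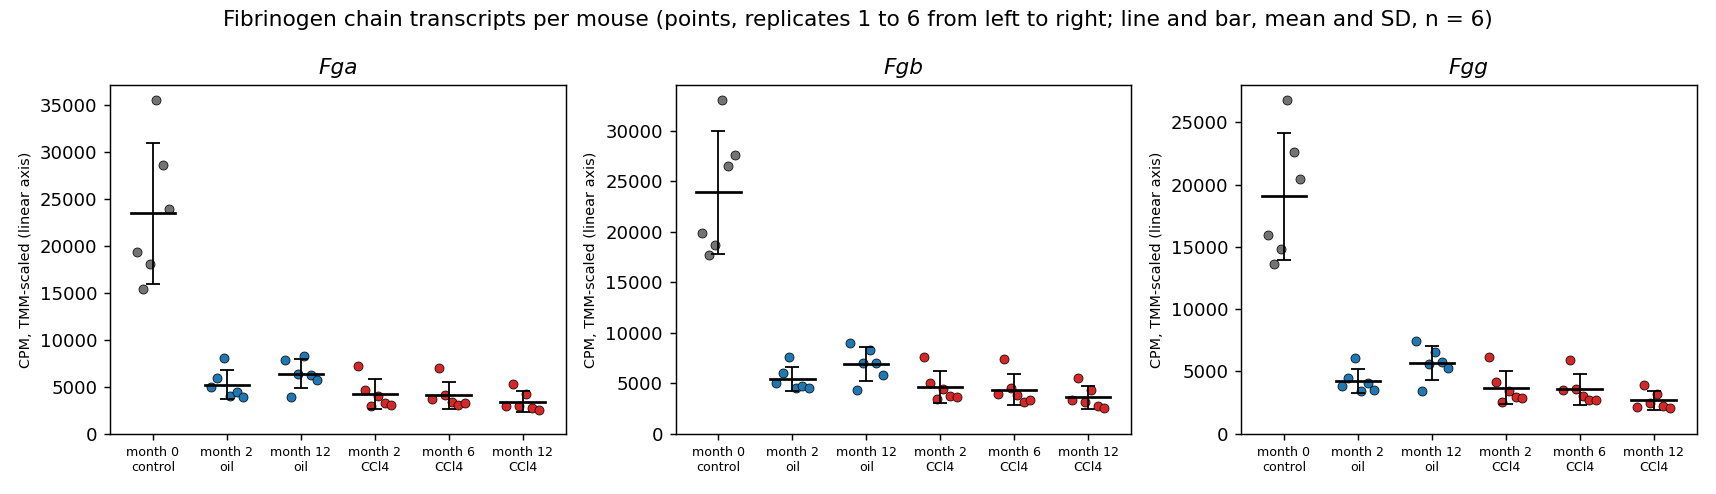
TMM-scaled CPM of Fga, Fgb and Fgg (linear axes) in each mouse of the 6 groups, with mean and SD. The month 0 mice, from 13600 to 35500 CPM, lay above all other mice, and the month 12 CCl4 group had the lowest medians (2940, 3220 and 2330 CPM).

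In the contact system, Klkb1 encodes plasma prekallikrein, whose active form frees bradykinin from kininogen. Klkb1 fell the most of all members at month 12. It ran from 310 to 431 CPM in oil (median 396) and from 75.1 to 214 CPM in CCl4 (median 152). All 6 CCl4 mice lay below all 6 oil mice (log2 -1.29, SE 0.21, adjusted p = 7.12e-06, edgeR), and the interaction with month was called (-1.07, SE 0.30, adjusted p = 0.00882, edgeR). Klkb1 lies at chr8:45266689-45294859 (mm10) and overlaps the gene model Gm45753 on the same strand, so its reads may be shared. Its neighbour F11, the factor XI gene 4.66 kb away, fell less (-0.50, SE 0.18, adjusted p = 0.0242, edgeR). The F11 call was lost without any of 4 single libraries and turned to 0.06 with library totals alone. In replicate 2 of month 12 CCl4 the neighbours stood apart in opposite directions: Klkb1 was lowest of the 6 at 75.1 CPM and F11 highest at 83.2 CPM. F12, the contact factor, fell (-0.40, adjusted p = 0.00758, edgeR). Kng1 and Kng2, near-identical kininogen genes whose reads may be shared, differed from oil by 0.10 and 0.15 and were not called.

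Of the extrinsic and common pathways, F7, F10 and F2 fell at month 12. F7 ran from 60.3 to 86.7 CPM in oil (median 81.2) and from 42.7 to 53.3 CPM in CCl4 (median 51.4), with no overlap (-0.66, SE 0.09, adjusted p = 3.59e-07, edgeR). Its neighbour F10, the factor X gene that lies 1.5 kb downstream, fell by 0.46 (SE 0.09, adjusted p = 6.65e-05, edgeR). F2, prothrombin, fell by 0.30 (adjusted p = 0.0166, edgeR), a call lost without replicate 3, 5 or 6 of month 12 CCl4 (-0.21 to -0.24). F2 was higher by 0.25 with library totals alone, and that value was called too (adjusted p = 0.0332). F5, the cofactor of factor X, and F3 differed by 0.02 and 0.12 and were not called. F5 ran from 405 to 472 CPM in oil (median 432) and from 342 to 662 CPM in CCl4 (median 390). Replicate 2 of month 12 CCl4 held the 662 CPM.

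The antihaemophilic factors of the intrinsic pathway fell too. F8 ran from 72.3 to 91.9 CPM in month 12 oil (median 79.6) and from 29.7 to 71.0 CPM in CCl4 (median 60.0). F9, the vitamin K-dependent protease that F8 assists, ran from 205 to 268 CPM in oil (median 256) and from 116 to 191 CPM in CCl4 (median 172). Neither overlapped between the groups. Their changes were -0.59 (SE 0.14, adjusted p = 0.000797) for F8 and -0.58 (SE 0.10, adjusted p = 1.1e-05) for F9 in edgeR. Library totals alone gave -0.04 and -0.03. F13b, the carrier subunit of the fibrin-stabilising factor, fell by 0.31 (adjusted p = 0.0457, edgeR) and lost its call without any of 8 single libraries.

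Among the anticoagulants, the protein C gene Proc fell without overlap. It ran from 281 to 364 CPM in month 12 oil (median 346) and from 180 to 222 CPM in CCl4 (median 205), a change of -0.70 (SE 0.09, adjusted p = 8.32e-08, edgeR). Proz, a cofactor for the inhibition of factor Xa, ran from 293 to 371 CPM in oil (median 352) and from 171 to 238 CPM in CCl4 (median 217), a change of -0.67 (SE 0.10, adjusted p = 7.48e-07, edgeR). Serpina10, the protease inhibitor that protein Z assists, fell by 0.48 (adjusted p = 0.0303, edgeR), with 4 single libraries whose omission ended the call. Serpind1, heparin cofactor II, fell by 0.33 (adjusted p = 0.0101, edgeR). Serpinc1, antithrombin, differed by -0.16 and was not called (adjusted p = 0.125, edgeR).

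Pros1, the cofactor of activated protein C, went the other way at month 12. It ran from 78.7 to 112 CPM in oil (median 84.7) and from 90.1 to 112 CPM in CCl4 (median 103). It rose by 0.20 (SE 0.08, adjusted p = 0.0294, edgeR) and lost its call when any 1 of 5 oil libraries (replicates 1, 2, 3, 5 and 6) or the 4 libraries with foreign transcripts were left out (0.15 to 0.18). Against month 6 CCl4 (64.7 to 75.6 CPM) all 6 month 12 CCl4 mice were higher (0.52, SE 0.08, adjusted p = 1.56e-06, edgeR). Protein S is also made by endothelium and macrophages. Their part in the Pros1 result was not tested.

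**Figure D3:**
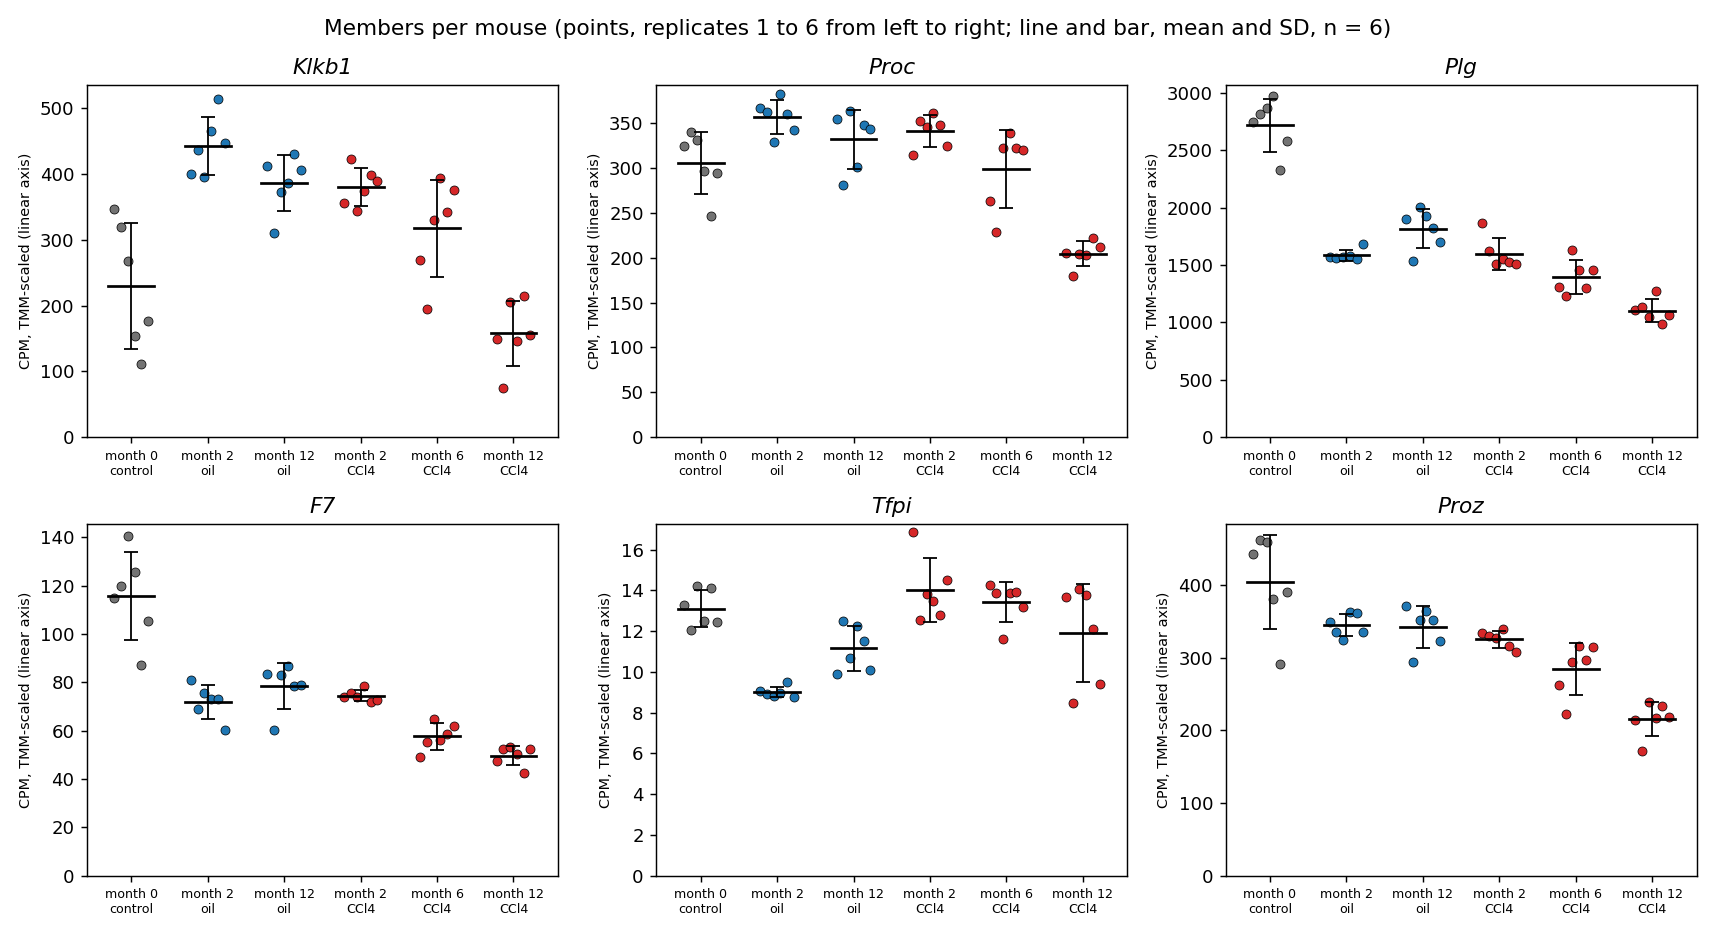
TMM-scaled CPM (linear axes) of Klkb1, Proc, Plg, F7, Tfpi and Proz in each mouse, with mean and SD of 6 mice. At month 12 the CCl4 mice of Klkb1, Proc, Plg, F7 and Proz lay below every month 12 oil mouse, and at month 2 the CCl4 mice of Tfpi lay above every month 2 oil mouse.

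The fibrinolytic genes split at month 12. Plg, the plasmin precursor made by hepatocytes, ran from 1540 to 2000 CPM in oil (median 1860) and from 988 to 1270 CPM in CCl4 (median 1080). It fell by 39.3% without overlap (log2 -0.72, SE 0.08, adjusted p = 1.61e-08, edgeR). Library totals alone gave -0.17 (adjusted p = 0.0516).

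Plat, tissue-type plasminogen activator, rose the most of all members. Its level in month 12 oil ran from 1.73 to 8.08 CPM, with a median of 2.64. In month 12 CCl4 it ran from 9.08 to 71.3 CPM, with a median of 11.5. Every CCl4 mouse was above every oil mouse, and the fitted level was 6.20 times higher (log2 2.63, SE 0.43, adjusted p = 5.56e-06, edgeR). Replicate 2 of month 12 CCl4 held the 71.3 CPM, while the other 5 mice ran from 9.08 to 15.6 CPM. Without that mouse the log2 difference was 1.75 and still called. Replicates 2 of month 12 oil (8.08 CPM) and of month 6 CCl4 (12.7 CPM) were also the highest Plat values of their groups. At month 2 the CCl4 mice (3.06 to 4.23 CPM, median 3.74) and the oil mice (1.23 to 3.84 CPM, median 2.09) overlapped (0.76, SE 0.43, adjusted p = 0.283, edgeR). The effect was larger at month 12 than at month 2 (1.87, SE 0.60, adjusted p = 0.0226, edgeR). That call was lost without replicate 2 of month 12 CCl4 (1.00, adjusted p = 0.101) or replicate 6 of month 2 oil (1.64, adjusted p = 0.0531).

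Plau, urokinase, and Plaur, its cell-surface receptor, rose at month 12 as well. Plau ran from 2.27 to 4.79 CPM in oil (median 2.64) and from 4.49 to 8.28 CPM in CCl4 (median 5.30), a change of 0.94 (SE 0.24, adjusted p = 0.00167, edgeR). Plaur ran from 0.544 to 1.94 CPM in oil (median 1.15) and from 1.26 to 5.74 CPM in CCl4 (median 2.66), a change of 1.48 (SE 0.35, adjusted p = 0.000751, edgeR). Both groups overlapped for each gene. Plaur rested on 12 to 49 counts per oil library and 34 to 187 per CCl4 library. The 3 genes kept their calls and direction with library totals alone.

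Markers of other cells moved in the same mice. Of 10 macrophage markers 8 rose at month 2, 7 at month 6 and 7 at month 12. Their summed level was 500 to 819 CPM in month 12 oil and 584 to 1250 CPM in month 12 CCl4. Of 8 cholangiocyte markers 4 rose at month 12, and their sum was 45.8 to 99.6 CPM in oil and 219 to 1100 CPM in CCl4. Replicate 2 of month 6 CCl4 was the highest of its group for the macrophage sum (1700 CPM), the stellate and fibroblast sum (1370), the neutrophil sum (108) and the mesothelial sum (82.8). Replicate 2 of month 12 oil had the highest stellate and fibroblast sum (1200 CPM) and mesothelial sum (104) of its group. The part of these cells in the Plat, Plau and Plaur results was not tested.

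**Figure D4:**
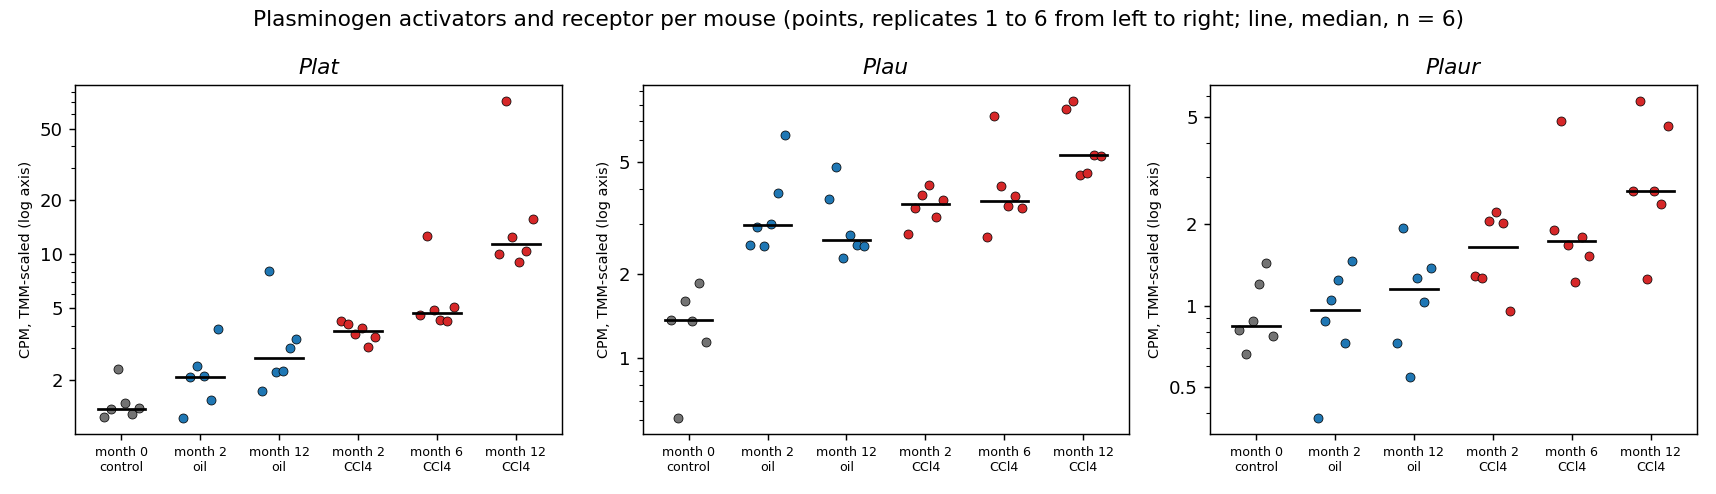
TMM-scaled CPM (log axes) of Plat, Plau and Plaur in each mouse, with the median of 6 mice as a line. All month 12 CCl4 mice of Plat, from 9.08 to 71.3 CPM, lay above the month 12 oil mice, and replicate 2 was the highest mouse in the month 6 CCl4 group for all 3 genes.

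Of the inhibitors and modulators, Hrg, the histidine-rich glycoprotein that binds plasminogen and heparin, fell by 0.38 at month 12 (SE 0.13, adjusted p = 0.0136, edgeR). That call was lost without replicate 6 of month 12 CCl4 (-0.27, adjusted p = 0.0689), and library totals alone gave 0.17. At month 2 all 6 CCl4 mice (535 to 639 CPM) had been above all 6 oil mice (424 to 511 CPM), though the difference of 0.28 was not called (adjusted p = 0.171). The effect at month 12 was lower than that at month 2 (-0.65, SE 0.18, adjusted p = 0.00818, edgeR), a call lost with library totals alone (-0.31, adjusted p = 0.188). Serpinf2, the main plasmin inhibitor, differed by -0.09 and Cpb2, the carboxypeptidase that trims plasminogen-binding sites from fibrin, by 0.09 at month 12. Neither was called. Cpb2 had fallen at month 6 (-0.39, adjusted p = 0.0265, edgeR), with losses of the call already given, and library totals alone gave -0.06 (adjusted p = 0.623).

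Tested directly, the CCl4 effect differed between months 12 and 2 for 13 members, 11 toward lower and 2 toward higher, against 10.1% and 11.2% of tested genes. Those toward lower were Klkb1, Fgg, F8, Plg, F7, Hrg, Proc, F9, Proz, Tfpi and F12, and those toward higher were Plat and Plau. The F12 call (adjusted p = 0.0499, edgeR) was lost when any 1 of 19 libraries was left out, and the Plau call (adjusted p = 0.0449, edgeR) when any 1 of 12 was. Plat (adjusted p = 0.136) and Plau (adjusted p = 0.053) were not called by limma-voom. On library totals alone 3 members were lower and 8 higher, and of these 13 calls those of F7, Plg, Klkb1, Plat and Plau held. Among all tested genes 5553 were then called, both directions together. Within CCl4, month 6 against month 2 moved F7 only (-0.37, adjusted p = 0.0497, edgeR), against 0.274% of genes higher and 0.228% lower. That F7 call was lost when any 1 of the 12 libraries was left out. No member was higher there in edgeR, DESeq2 or limma-voom, and none at an unadjusted p below 0.05.

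From month 6 to month 12 of CCl4, 6 members fell and 4 rose, against 18.6% and 20.6% of tested genes. Klkb1 (-1.01), Proc (-0.55), F8 (-0.54), Proz (-0.40), Plg (-0.34) and F9 (-0.31) fell. Plat (1.85), Cpb2 (0.66), Pros1 (0.52) and Kng2 (0.31) rose. The Kng2 call was lost when any 1 of 5 libraries was left out (0.22 to 0.31). Library totals alone ended the calls of F9 (-0.14) and Plg (-0.16). Cpb2 ran from 279 to 352 CPM at month 6 and from 399 to 601 CPM at month 12, without overlap (SE 0.13, adjusted p = 0.000173, edgeR). The Plat value was 0.95 without replicate 2 of month 12 CCl4. This comparison shares the month 12 CCl4 mice with that against oil.

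Between months 12 and 2 of oil, 0 members were called in either direction by edgeR, DESeq2 or limma-voom, against 0.0391% of genes higher and 0.0326% lower. At an unadjusted p below 0.05 there were 6 higher (F9, Pros1, Serpina10, Plg, Cpb2 and Tfpi) and 0 lower. No share of all tested genes was counted at that unadjusted threshold. Tfpi in month 12 oil (9.89 to 12.5 CPM) lay above every month 2 oil mouse, with a difference of 0.31 that was not called (adjusted p = 0.179, edgeR).

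Larger shifts separated month 0 from month 2 oil. Of the members, 17 fell and 4 rose, against 16.4% and 14.8% of tested genes, and the median was -0.53. All 17 that fell did so without overlap, but the share of all tested genes without overlap was not counted. On library totals alone 16 members were lower and 8 higher, while 6298 of all tested genes were called, both directions together. The fibrinogen chains fell by 77.4 to 77.8%. Fgg went from 13600 to 26700 CPM (median 18200) at month 0 to 3400 to 6080 CPM (median 3960), a change of -2.17 (SE 0.23, adjusted p = 2.66e-08, edgeR). Fga and Fgb changed by -2.16 and -2.14.

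Serpina10 fell as far as the fibrinogen genes, from 945 to 1500 CPM (median 1270) to 179 to 401 CPM (median 233), a change of -2.25 (SE 0.19, adjusted p = 2.47e-10, edgeR). Cpb2 went from 1170 to 1850 CPM (median 1410) to 337 to 399 CPM (median 366), a change of -1.98 (SE 0.14, adjusted p = 5.07e-12, edgeR). Kng1 and Kng2 fell by 1.26 each. Pros1, Serpinf2, Hrg, Plg and F7 fell by 0.68 to 0.89, and F9, F10, Tfpi, F2 and Serpinc1 by 0.35 to 0.56. Klkb1 (0.95), Plau (1.41), F3 (0.73) and Proc (0.23) rose. The Proc call (adjusted p = 0.0499, edgeR) was lost when any 1 of 10 libraries was left out, and the F3 call (adjusted p = 0.0247, edgeR) when any 1 of 4 was. Serpinc1 was the member no longer called lower with library totals alone (-0.12, adjusted p = 0.274). Of the members with a promoter in the table, CTGGGA was present in 7 of 14 that fell and 2 of 10 others. Cpb2, Kng2 and Serpinf2 fell without it in this window.

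**Figure D5:**
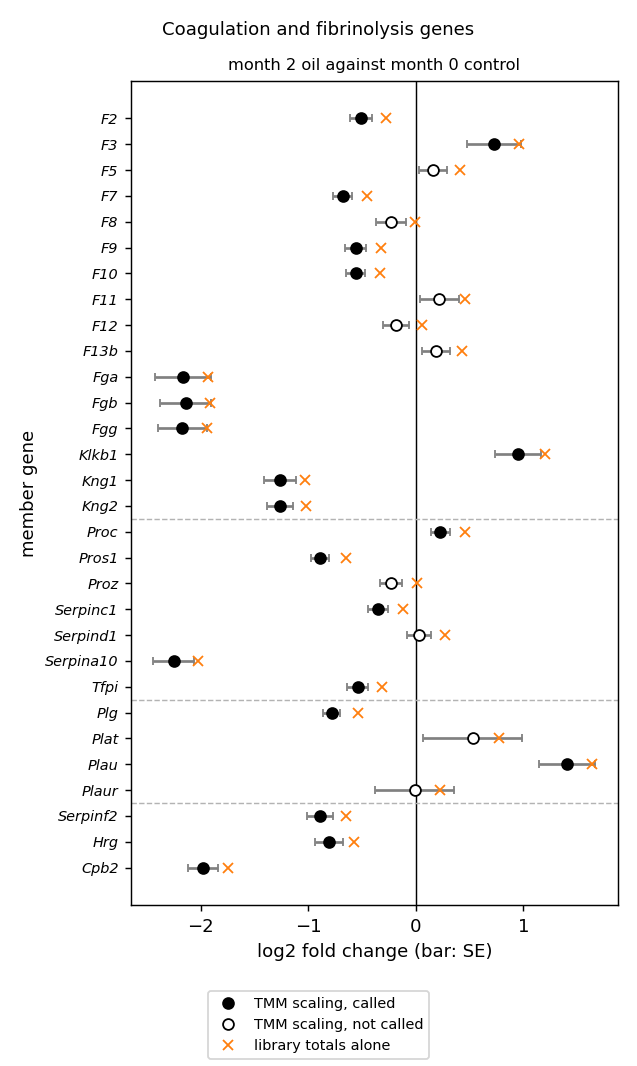
Log2 fold change of month 2 oil against month 0 control for the 30 members (rows, by role between dashed lines) with standard error, drawn with filled circles where called and crosses for library totals alone. The fibrinogen chains, Serpina10 and Cpb2 lay near -2, and Plau and Klkb1 were the highest called members at 1.41 and 0.95.

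Acute phase genes outside the members moved in the same mice: all 17 fell from month 0 to month 2 oil, with a median of -3.07. Their summed level was 136000 to 212000 CPM at month 0 and 16700 to 24400 CPM in month 2 oil. Neutrophil markers had summed levels of 47 to 115 CPM at month 0 and 11.3 to 21.4 CPM in month 2 oil. Age and any other difference in handling between the month 0 mice and the month 2 oil mice cannot be told apart. In CCl4 against oil at month 12, 7 of the 17 acute phase genes fell and 3 rose, with Crp (-1.13), Saa4 (-1.89) and Itih4 (-0.89) having the smallest p. On library totals alone 6 were higher and 5 lower. Within month 2 CCl4, replicate 1 had the highest summed acute phase level (44300 CPM) and the highest Fga, at 7180 CPM.

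Other genes of the system were read from lists outside the members. Of 8 genes for the vitamin K cycle, gamma-carboxylation and secretion of clotting factors, 3 fell at month 12. These were Vkorc1, the epoxide reductase that warfarin blocks (-0.70), Ggcx, the gamma-glutamyl carboxylase (-0.63), and Lman1, the cargo receptor for F5 and F8 (-0.50). Library totals alone gave -0.15, -0.08 and 0.04, with 5 genes of the list called higher and 0 lower. Of 19 endothelial and plasma haemostasis genes 6 rose and 9 fell, led by Serping1, the inhibitor of kallikrein and C1 (-0.71), Masp1 (-0.62) and Adamts13, the von Willebrand factor protease (-0.99). Scaled by library totals alone, 9 were higher and 2 lower.

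Of 10 tested genes for plasmin and protease receptors, 6 rose and 1 fell at month 12, and 8 were higher and 0 lower with library totals alone. F2rl1, a protease-activated receptor, went from a mean of 0.413 to 3.87 CPM (log2 3.21, SE 0.40, adjusted p = 7.57e-08, edgeR). Anxa2, part of a plasminogen and Plat receptor, went from 27.6 to 107 CPM (1.95), and the membrane protease gene St14 from 0.544 to 4.30 CPM (2.97). Of 8 tested platelet genes Itgb3 (0.89) and Pf4 (0.95) rose, 0 fell, and Itga2b differed by 0.30 without a call. The 8 ran from -0.51 to 0.95, with a median of 0.14. Library totals alone gave 4 higher and 0 lower. Of 14 hepatocyte transcription factors 6 fell, led by Foxa1 (-1.27), Cebpa (-0.65) and Nr1h4 (-0.61). On library totals alone 4 were higher and 1 lower. Among 10 hepatocyte markers 6 fell at month 12, with a median of -0.63. The median was -0.08 with library totals alone, where 3 were higher and 2 lower.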

How the data were processed

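Raw counts per gene symbol were deposited for 36 livers. Per the labels' protocols, RNA was isolated with TRIzol, depleted of ribosomal RNA, made into stranded libraries and read as paired ends, and reads were mapped with Biojupies. The submitters' processing notes name mm10, edgeR 3.30.3 and limma 3.44.3. The counter, its annotation and its use of strand are not given in the sources used here, so reads of overlapping genes cannot be assigned with certainty.

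From the counts, genes were filtered with filterByExpr, scaled by TMM (factors 0.757 to 1.33) and tested in 8 comparisons from 1 fit of 6 groups by edgeR's quasi-likelihood test (edgeR 4.0.16, R 4.3.3), which was tested on simulated data. SEs derive from the fitted change and its F statistic. Library totals ran from 19403247 to 28917545, and only counting error shrinks with depth. P-values measure the spread between these libraries. No pair of libraries of a group agreed within sampling noise. Alternatives used DESeq2 1.42.0, limma-voom 3.58.1, other scalings and filters, a replicate block and omission of single libraries.

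All 30 members are named. Those called in CCl4 at month 2, 6 or 12 with a change of at least 0.5 (log2) have values per group, and other lists give at most the 3 genes with the smallest p at month 12. Other genes named singly were picked after their values were seen. The members and lists were chosen with earlier results of these data known.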

Additional observations from a re-analysis of the deposited data

Results flagged for a closer look

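In 180 tests for a mouse far from the rest of its group (Dixon's ratio, 6 mice), 24 values stood out. Chance alone flags about 1 in 20 groups, and neighbouring genes share their mice. In month 6 CCl4, replicate 2 was high for Fga (6990 CPM), Fgb (7380), Fgg (5930), Serpina10 (308), Plat (12.7), Plau (7.29) and Plaur (4.82). In month 12 CCl4, replicate 2 was high for F11 (83.2 CPM) and Plat (71.3) and low for Proz (171). In month 12 oil, replicate 2 was low for F7 (60.3 CPM), F10 (281), Kng1 (1580) and Kng2 (190) and high for Plat (8.08), while replicate 4 was high for Pros1 (112). In month 2 CCl4, replicate 1 was high for Serpinf2 (792 CPM) and Plg (1860). In month 2 oil, replicate 6 was high for Plg (1680 CPM) and Plau (6.26). At month 0, replicate 4 was high for Serpinf2 (1460 CPM), Kng1 (6740) and Kng2 (787), and replicate 3 for Plat (2.32).

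For 13 members the CCl4 effect differed between months 12 and 2 in edgeR's test of the interaction. It was lower at month 12 for Klkb1 (-1.07), Fgg (-0.88), F8 (-0.75), Plg (-0.73), F7 (-0.71), Hrg (-0.65), Proc (-0.63), F9 (-0.61), Proz (-0.59), Tfpi (-0.54) and F12 (-0.47). It was higher for Plat (1.87) and Plau (0.95).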

How the results depend on the processing

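RLE size factors, a filter of 1 CPM, DESeq2 and limma-voom kept all 22 calls of CCl4 against oil at month 12. No filter kept 20 of them and a fit of the compared groups 15, with no change of direction. With library totals alone the members' median was 0.18 at month 2, 0.07 at month 6 and 0.20 at month 12. The counts were then 4 higher at month 2, 0 lower at month 6, and 14 higher and 2 lower at month 12. They were 8 higher and 3 lower for the interaction and 8 higher in month 2 oil against month 0. Within CCl4, 8 were higher for month 12 against month 6 and 0 lower for month 6 against month 2. Of all 15338 tested genes, both directions together, 3339 were called at month 2, 9061 at month 6 and 10923 at month 12. The interaction had 5553 and month 2 oil against month 0 had 6298. Within CCl4, month 12 against month 6 had 6107 and month 6 against month 2 had 84. Called members then changed sign: F10 (0.01), Pros1 (0.08), Proz (0.05) and Plg (0.04) at month 6, and F2 (0.25), F10 (0.09), F11 (0.06), F12 (0.15), F13b (0.23), Serpind1 (0.22), Serpina10 (0.09) and Hrg (0.17) at month 12. With this scaling the median of all tested genes lay at 0.20, 0.31 and 0.56 for CCl4 at months 2, 6 and 12. Between months 12 and 2 of oil it lay at -0.09. Only the scaling differed between these fits, and the reason for the shift of the median gene between scalings was not tested.

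With only the compared groups in the fit 3 members were higher at month 2 and 11 lower at month 6. Of all tested genes that fit called 2182 at month 2 and 1875 at month 6, both directions together. At month 6, 10 were lower with DESeq2 and 10 without the 4 libraries, 2 with month 2 oil alone, and 0 were higher with month 12 oil alone. Those settings in turn called 2002, 2199, 1306 and 1115 of all tested genes, both directions together. The interaction toward higher gave 1 without a filter and 0 with limma-voom, where 2800 and 3092 of all tested genes were called, both directions together. F7 from month 2 to month 6 gave 0 with RLE size factors, no filter, limma-voom or without the 4 libraries. These called 73, 80, 38 and 21 of all tested genes there, both directions together. The cause was not tested for these.

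Leaving out single libraries gave 1 to 3 higher and 5 to 11 lower at month 6, 0 to 2 higher for the interaction, 2 to 3 higher in month 2 oil against month 0, and 0 lower for month 6 against month 2 of CCl4. No count over all tested genes is given for these omissions.

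Replicate numbers gave no sign of pairing in these correlations. Same-numbered libraries of different groups had a median correlation of -0.0277 (21 of 90 over 0.1). Different-numbered ones had -0.000977 (147 of 450 over 0.1), and 3 of 36 libraries correlated best with their own number. With the replicate block the interaction gave 1 higher and month 6 against month 2 of CCl4 gave 0 lower. Of all tested genes that fit called 3107 and 50, both directions together. Genes near the floor of depth, such as Plaur with 10 to 187 counts, have the least precise values.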
